A study of Homo sapiens with 6 samples.

Results

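Cystatins are protein inhibitors of cysteine proteases, and cathepsins are proteases that work mostly in the lysosome. RNA-seq counts were followed for 10 genes, the 4 cystatins CST3, CST6, CSTA and CSTB and the 6 cathepsins CTSA, CTSB, CTSD, CTSH, CTSL and CTSZ, out of 21494 genes in the count table analysed. All 10 genes are in the table and all 10 passed the filter on low counts, which left 16756 genes for testing. They were selected on their counts in the same comparison that is described here, in particular because CST3 was very high in one group and had 0 counts in the other. Their differences between the groups are therefore given as a description, without p-values.

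The series holds 6 RNA samples, 3 labelled as control (Control sh) and 3 labelled as DCAF1 knockdown (VprBP sh). DCAF1 encodes VprBP, a subunit of a ubiquitin ligase that has also been described as a kinase for histone H2A. Per the study's methods, VprBP sh cells carried a lentiviral pLKO.1 vector with 1 shRNA against the coding region of VprBP and were selected with puromycin, and Control sh cells carried a control shRNA. The labels give the genotypes as WT and DCAF1 Knockdown, name G361, a human melanoma line, as the cell line of both groups, and also carry the name LD611 as their source. Neither the labels nor the methods say whether the 3 samples of a group came from separate cultures, so the p-values below measure only the spread between these samples, which may be technical. The gene lists and overlapping genes below were chosen or named with results of these data known. Their p-values are therefore a description too.

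The total was 18195926 to 26883925 counts per sample. DCAF1 itself had 688, 893 and 884 counts in Control sh against 681, 488 and 628 counts in VprBP sh. Scaled to normalized counts, that is 869 ± 90.6 and 583 ± 154 (SD, n = 3 each), a log2 fold change of -0.58 ± 0.17 (SE) with an adjusted p of 0.0125 in edgeR's quasi-likelihood test, and the groups did not overlap. The difference is under the 2-fold limit used for a call. Of 7 melanocyte markers listed for a check of the label, TYR, DCT and SOX10 have no row in the table analysed, and MLANA had 1, 1 and 2 counts in Control sh against 4, 1 and 5 in VprBP sh. The melanoma label is therefore not borne out by these defining markers in either group. The melanocyte markers that passed the filter, PMEL and MITF, summed to 182 to 204 raw counts in Control sh but 234 to 358 in VprBP sh, and on normalized counts neither was called, at log2 differences of 0.07 and 0.46. Of all genes tested, 24.5% were called higher and 22.0% lower in VprBP sh, a call being an adjusted p under 0.05 with a fold change over 2. For 79.5% of them, the normalized counts of the groups did not overlap. The share of mitochondrial genes was 1.96% to 1.98% in Control sh but 4.10% to 4.48% in VprBP sh. The part of these whole-sample differences in the values below was not tested, and in bulk RNA fewer cells of a type and less RNA per cell cannot be told apart.

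Cystatins bind in the active site cleft of papain-like cysteine proteases and block it. Cystatin C (CST3) and cystatin M (CST6) are secreted, whereas the stefins CSTA and CSTB stay in the cytosol. Of the cathepsins, CTSB, CTSH, CTSL and CTSZ are cysteine proteases of the papain family, CTSD is an aspartic protease, and CTSA is a serine carboxypeptidase that also protects lysosomal β-galactosidase and neuraminidase. All are made as precursors, carried to the lysosome and activated in its acid interior, and some are released by tumour cells, where they can cut matrix proteins.

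The sequence before the transcription start is shown for 4 of the genes because their counts span the responses in the set. CST3 had no counts left after knockdown, CTSZ was lower by a few fold, CTSA by less than 2-fold, and CTSD overlapped between the groups. The 100 bases before the RefSeq start on GRCh38.p14 are chr20:23637956-23638055 on the minus strand for CST3, chr20:45891235-45891334 on the plus strand for CTSA, chr11:1763928-1764027 on the minus strand for CTSD and chr20:59007255-59007354 on the minus strand for CTSZ. They are printed 5′ to 3′ on the strand of the gene, with capitals for the E-box CACGTG and the GC box GGGCGG or its complement.

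CST3: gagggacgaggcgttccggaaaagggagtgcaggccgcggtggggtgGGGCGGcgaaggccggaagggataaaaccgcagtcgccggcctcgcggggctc
CTSZ: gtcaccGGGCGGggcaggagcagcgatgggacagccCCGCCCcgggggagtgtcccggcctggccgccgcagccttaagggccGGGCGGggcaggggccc
CTSA: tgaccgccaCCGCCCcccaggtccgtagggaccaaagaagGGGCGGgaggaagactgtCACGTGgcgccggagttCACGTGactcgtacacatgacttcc
CTSD: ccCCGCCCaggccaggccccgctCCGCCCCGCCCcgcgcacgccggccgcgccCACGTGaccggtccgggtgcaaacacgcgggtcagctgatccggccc

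Promoters of 300 bases, 250 before and 50 from the start, were found for 6 of the 10 genes, namely CST3, CTSA, CTSD, CTSH, CTSL and CTSZ. Both strands were searched. All 6 held a GC box GGGCGG, which 45.0% of 35116 RefSeq promoters hold. The E-box CACGTG, held by 7.26% of promoters, was found in CTSA at positions -42 and -25 and in CTSD at position -47, counted from the start. The palindrome TCACGTGA, the core of the CLEAR element that the MiT/TFE factors bind in lysosomal genes, was found in CTSA at position -26, where it holds the E-box at -25, and in 0.98% of all promoters. None of the 6 held TATAAA, which 11.5% of promoters hold. GC content was 69.7% for CST3, 66.7% for CTSA and 81.0% for CTSZ, against a median of 58.7% over all promoters, and the 6 promoters held 21 to 43 CpG dinucleotides, against a median of 14.0. CST3, which had no counts in VprBP sh, and CTSD, whose groups overlapped, both hold the GC box. These matches describe the letters and say nothing of binding.

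Of the cystatins, the transcripts of 3 genes were far lower in VprBP sh and those of 1 gene were somewhat higher. CST3 (ENSG00000101439.9, chr20:23626706-23638473 on hg38, minus strand), the main secreted cystatin of body fluids, had 13553, 11686 and 12901 counts in the Control sh samples. It had 0 counts in each of the 3 VprBP sh samples. Normalized counts in Control sh were 15709, 12703 and 12231, a mean of 13548 ± 1886 (SD, n = 3). With a limit of 3 counts set for each sample, which is 2.30 to 3.48 normalized counts and covers counting error only, CST3 was at least 4636-fold lower in VprBP sh.

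CST6 (ENSG00000175315.3, chr11:66012008-66013505, plus strand) is a secreted inhibitor best known from skin. It had 397, 534 and 659 counts in Control sh against 5, 14 and 12 counts in VprBP sh. Normalized counts were 555 ± 85.2 and 9.78 ± 4.51 (SD, n = 3 each), a log2 fold change of -5.81 ± 0.26 (SE), or 56.8-fold lower. With so few counts left, the level in VprBP sh is known only roughly, and its highest sample, replicate 2 at 14.6 normalized counts, stood above its lowest, replicate 1 at 5.58.

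CSTA (ENSG00000121552.4, chr3:122325248-122341969, plus strand), a stefin of epithelia and of the cornified envelope, had 743, 785 and 982 counts in Control sh. In VprBP sh it had 19, 24 and 35 counts. Normalized counts were 882 ± 42.8 and 24.3 ± 2.86 (SD, n = 3 each), a log2 fold change of -5.16 ± 0.14 (SE), or 36.2-fold lower. Both groups were tight, and every VprBP sh sample lay far below every Control sh sample.

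CSTB (ENSG00000160213.9, chr21:43772511-43776330, minus strand), the broadly expressed stefin, went the other way. It had 1666, 1576 and 2005 counts in Control sh against 2101, 2548 and 3915 counts in VprBP sh. Normalized counts were 1931, 1713 and 1901 against 2346, 2648 and 3001, a log2 difference of 0.53 ± 0.10 (SE), or 1.44-fold. The groups did not overlap, but the difference is under the limit for a call. Each of the 4 cystatin genes has 3 exons in its canonical transcript, and none of the 50-base windows of that transcript is found in another gene's transcripts. Exon bases outside the canonical transcript were not checked. The plot of normalized counts by sample shows the cystatins left of its dotted line.

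**Figure D1:**
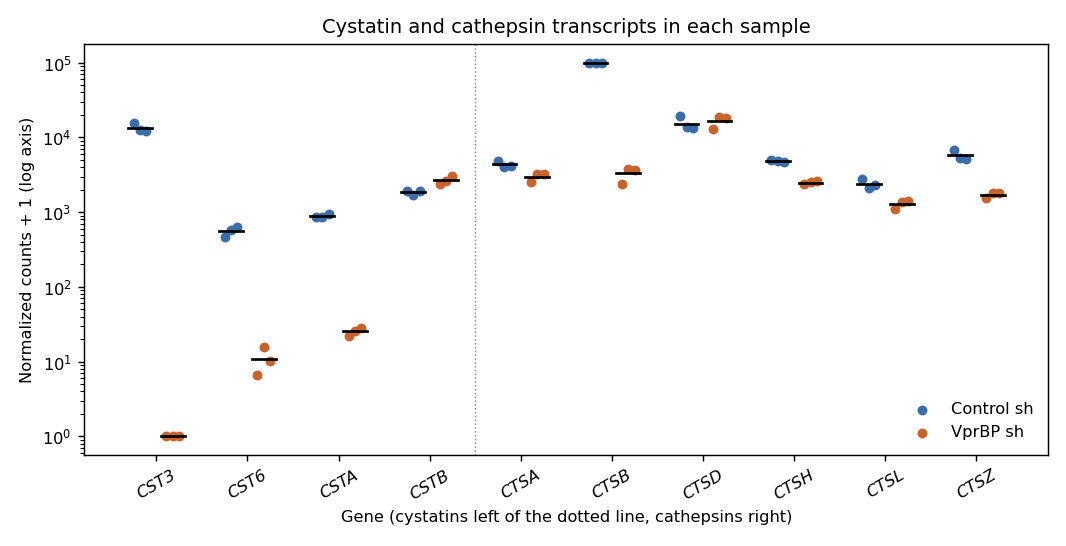
Normalized counts + 1 on a log axis for the 10 cystatin and cathepsin genes along the x axis, with a point per sample in blue for Control sh and in orange for VprBP sh and a black line at the mean (n = 3 each). CST3 lay at 12231 to 15709 in Control sh and at 0 in all VprBP sh samples, and CTSD is the gene whose groups overlapped.

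Of the 6 cathepsins, CTSB and CTSZ were called lower and the other 4 were not called. CTSB (ENSG00000164733.22, chr8:11842524-11869533, minus strand), a cysteine protease that acts as an endopeptidase and as a carboxydipeptidase, was the most abundant of the 10 transcripts in Control sh. It had 86286, 91123 and 105635 counts in Control sh against 2154, 3649 and 4837 counts in VprBP sh. Normalized counts were 100011, 99056 and 100150, a coefficient of variation of 0.597%, against 2405, 3792 and 3708, a coefficient of variation of 23.6%. The log2 fold change was -4.92 ± 0.18 (SE), or 30.2-fold lower. CTSB alone took 0.417% to 0.425% of all counts in Control sh against 0.0118% to 0.0185% in VprBP sh, and in VprBP sh replicate 1 stood below the other two.

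CTSZ (ENSG00000101160.15, chr20:58985686-59008238, minus strand), a carboxypeptidase also known as cathepsin X, had 5932, 4825 and 5409 counts in Control sh. In VprBP sh it had 1384, 1752 and 2337 counts. Normalized counts were 5750 ± 977 and 1719 ± 151 (SD, n = 3 each), a log2 fold change of -1.74 ± 0.13 (SE), or 3.34-fold lower. Control sh replicate 1 was the highest at 6876, the other two lay at 5245 and 5128, and all 3 were well above the VprBP sh samples. NELFCD, which overlaps CTSZ on the opposite strand, had 3000, 3345 and 4064 counts in Control sh against 1607, 1852 and 2585 in VprBP sh. Whether counting used the strand is not given in the sources used here, so reads of such pairs may not be told apart.

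CTSH (ENSG00000103811.18, chr15:78921058-78949574, minus strand) is an aminopeptidase of the papain family. Its normalized counts were 4991, 4832 and 4709 in Control sh against 2349, 2521 and 2588 in VprBP sh, a log2 fold change of -0.96 ± 0.08 (SE). CTSL (ENSG00000135047.16, chr9:87724051-87731469, plus strand) is an endopeptidase that also acts on procathepsins. Its normalized counts were 2789, 2130 and 2275 in Control sh against 1104, 1347 and 1431 in VprBP sh, a log2 fold change of -0.89 ± 0.13 (SE). CTSH, at 1.95-fold, and CTSL, at 1.85-fold, lie just inside the 2-fold limit, and CTSZ is the nearest called gene beyond it. Both groups of each gene were apart. With edgeR's TMM factors CTSH passed the limit at a log2 fold change of -1.06, and with DESeq2 both passed it, at -1.08 for CTSH and -1.01 for CTSL. Only 1.0% of the 50-base windows of the canonical CTSL transcript also lie in another gene, all in CTSL pseudogenes.

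CTSA (ENSG00000064601.21, chr20:45890144-45898949, plus strand) had 4116, 3750 and 4417 counts in Control sh against 2254, 3115 and 4190 counts in VprBP sh. Normalized counts were 4345 ± 373 and 2988 ± 409 (SD, n = 3 each), a log2 fold change of -0.54 ± 0.11 (SE), or 1.45-fold lower, and the groups did not overlap. PLTP, which encodes a phospholipid transfer protein and overlaps CTSA on the opposite strand, had 2044, 1747 and 1947 counts in Control sh against 0 in each VprBP sh sample. Of the 50-base windows of the canonical CTSA transcript, 17.03% also lie in transcripts of other genes, PLTP among them. How much of the CTSA difference belongs to such shared reads was not tested.

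CTSD (ENSG00000117984.15, chr11:1752752-1764573, minus strand), the major aspartic protease of lysosomes, was the only member whose groups overlapped. It had 16523, 12581 and 13934 counts in Control sh against 11669, 17905 and 23688 counts in VprBP sh. Normalized counts were 19151, 13676 and 13210 against 13029, 18605 and 18158. The log2 difference of 0.11 ± 0.17 (SE) is smaller than the spread between samples, with replicate 1 the highest in Control sh and the lowest in VprBP sh. For CTSD, 61.27% of the 50-base windows of the canonical transcript also lie in transcripts of ENSG00000250644. That gene, at chr11:1734821-1763954 on the same strand, covers most of CTSD and also overlaps IFITM10, the neighbour of CTSD named further on. ENSG00000250644 had 428, 408 and 385 counts in Control sh against 1252, 2360 and 3235 in VprBP sh. Its log2 fold change was 2.28 ± 0.22 (SE), with an adjusted p of 8.64e-06 in edgeR's quasi-likelihood test. The sum of both genes was 19647, 14120 and 13575 normalized counts in Control sh against 14426, 21057 and 20638 in VprBP sh, and the groups still overlapped. ENSG00000250644 took 2.76% of that sum in Control sh against 11.3% in VprBP sh, so both values are uncertain by how the authors' counting divided the shared reads.

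Of the 10 genes, 5 (CST3, CST6, CSTA, CTSB and CTSZ) were called lower and the other 5 were not called, where 22.0% of all genes tested were called lower. The groups did not overlap for 9 of the 10, where 79.5% of all genes tested did not. Since the genes were chosen by these values, nothing is read from the counts. The median log2 fold change was -1.35 over the 10 genes, -5.48 over the cystatins and -0.93 over the cathepsins, against 0.08 over all genes tested. With CST3 set to its bound instead of its fitted value, the median over the 10 genes was -1.35 as well. The plot of log2 fold changes sets these values against the 2-fold limit and beside other cathepsins and inhibitors, which are described further on.

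**Figure D2:**
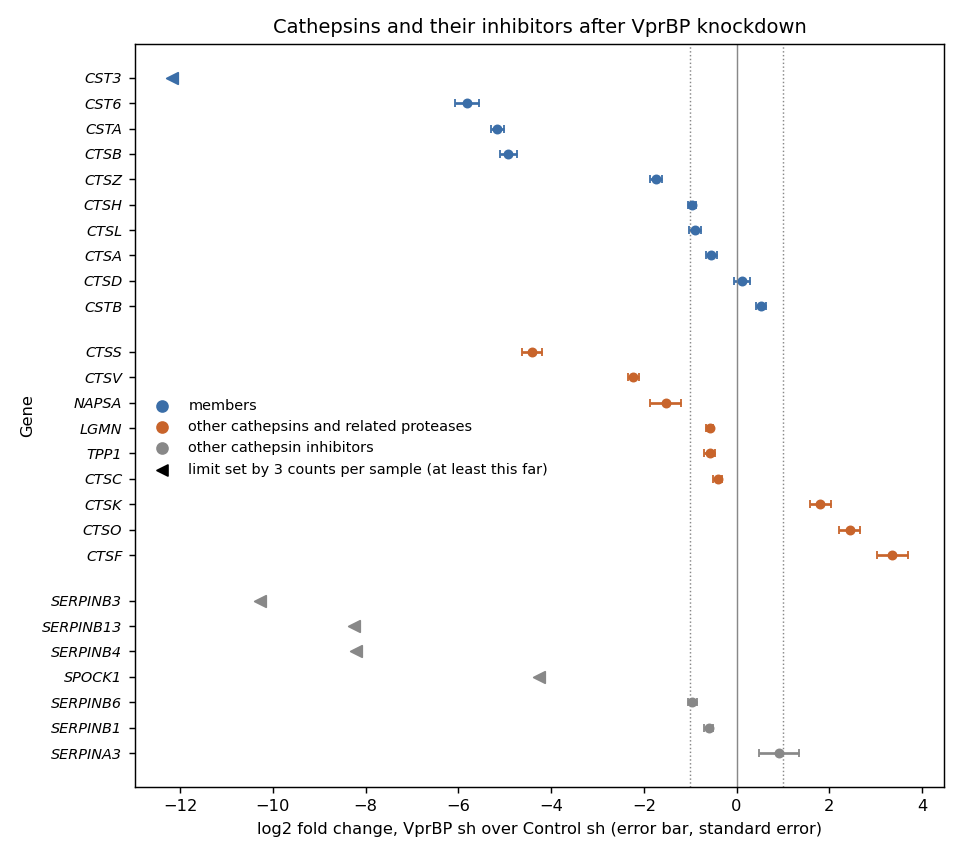
Log2 fold change of VprBP sh over Control sh for the 10 genes (blue), 9 other cathepsins and related proteases (orange) and 7 other cathepsin inhibitors (grey), with bars of 1 SE, dotted lines at a 2-fold change and triangles at the limit set by 3 counts per sample. CST3 is drawn at its bound of -12.18, CST6, CSTA and CTSB lie between -5.81 and -4.92, and CTSS at -4.41 and CTSF at 3.36 are the ends of the other cathepsins.

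Levels can be compared between genes only per length, and normalized counts per kilobase of all annotated exons were used for this. In Control sh, CTSB had the highest level at 9472, followed by CST3 at 3748, CTSD at 2694, CST6 at 938 and CSTA at 646. These 5 were each apart from the next gene in the order in all samples. The levels of CTSA (503), CSTB (484), CTSL (392), CTSH (352) and CTSZ (297) followed, and neighbours among these overlapped. In VprBP sh the order was led by CTSD at 2913, followed by CSTB at 698, CTSA at 346, CTSB at 314, CTSL at 212 and CTSH at 181. From CTSA to CTSH, neighbours in the order overlapped. CTSZ had a level of 88.7, CSTA of 17.8 and CST6 of 16.5, the last pair overlapping, and CST3 was at 0. With the length of the canonical transcript in place of all exons, CTSZ had a level of 3828 in Control sh and moved to the fourth place, since few of its 19384 annotated exon bases are in that transcript of 1502 bases. Under that length CTSB still led in Control sh, at 26718, and CTSD in VprBP sh, at 8077. With the length of the longest coding transcript, CTSD, at 6982, stood above CST3, at 4123, in Control sh, with no overlap, so the order of these genes behind CTSB depends on the length.

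**Figure D3:**
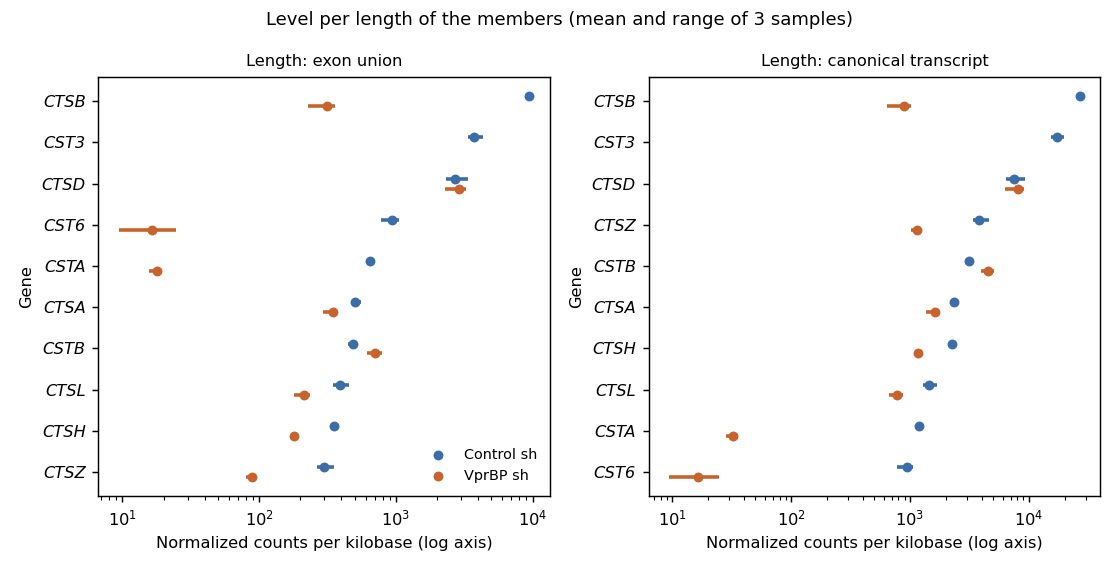
Level of each of the 10 genes in normalized counts per kilobase on a log axis, per length of all exons (left) and of the canonical transcript (right), with points for the mean and bars for the range of 3 samples, genes being ordered by Control sh (blue). On the left, CTSB leads in Control sh at 9472 and CTSD in VprBP sh (orange) at 2913, and CST3, at 0 in VprBP sh, has no orange point on the log axes.

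Within the sums of these 4 cystatins and 6 cathepsins, the leading gene differed between the groups. The set was chosen on the CST3 counts, so the fall of the CST3 share to 0% was built in. CSTB and CTSD, which led in VprBP sh, were themselves not called, at log2 differences of 0.53 and 0.11. Of the summed cystatin level per kilobase, CST3 made up 69.4%, 63.1% and 60.2% in the Control sh samples and 0% in VprBP sh. CSTB made up 8.08%, 8.05% and 8.86% in Control sh against 96.1%, 94.2% and 95.7% in VprBP sh. The secreted cystatins thus gave most of the measured cystatin RNA in one group and the cytosolic stefin CSTB in the other. Of the summed cathepsin level, CTSB made up 65.1%, 71.0% and 71.5% in Control sh against 7.05%, 8.0% and 7.96% in VprBP sh. CTSD made up 23.0%, 18.1% and 17.4% in Control sh against 70.6%, 72.6% and 72.0% in VprBP sh. Of these 6 cathepsins, a cysteine protease led in one group and an aspartic protease, which cystatins do not inhibit, in the other.

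The summed level of the 6 cathepsins over that of the 4 cystatins was 2.33, 2.38 and 2.37 in Control sh against 5.07, 6.11 and 5.39 in VprBP sh. Both sums were lower in VprBP sh, the cathepsins at 3238 to 4498 normalized counts per kilobase against 13250 to 14586, and the cystatins at 639 to 821 against 5568 to 6259. With the length of the canonical transcript, the ratio was 1.89 to 2.03 in Control sh against 2.76 to 3.29 in VprBP sh, and with that of the longest coding transcript 4.93 to 5.03 against 7.97 to 9.72. Its size thus depends on the length used, while the groups were apart with each of the 3 lengths. CST3, for whose 0 counts the set was chosen, made up 55.4% to 79.1% of the Control sh cystatin sums over these lengths. The higher ratio in VprBP sh thus rests on CST3 and was built in by the choice of genes. Without CST3, the ratio was lower in VprBP sh under the canonical and the longest coding transcript length. Under the length of all exons, the groups then overlapped. These are RNA levels, and neither protein nor activity was measured. Together the 10 genes took 0.614% to 0.656% of all counts in Control sh against 0.125% to 0.166% in VprBP sh.

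The replicates differed in a shared way across the members. VprBP sh replicate 1 was the lowest of its group in 9 of the 9 genes with counts there, while it was the lowest in 43.3% of all genes tested with counts in that group and in 58.3% of the genes of the lysosomal lists below. Control sh replicate 1 was the highest of its group in 7 of 10 genes, against 39.1% of all genes tested. Scaled by library size alone, the same replicates were lowest in 9 of 9 and highest in 6 of 10. The genes share these libraries, so they are not independent of each other in this respect. Leaving out any 1 of the 6 samples kept the same 5 genes called, and the log2 fold change of CTSD then ran from 0.01 to 0.30.

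The 10 genes lie on 7 chromosomes, with CST3, CTSA and CTSZ on chromosome 20 and CST6 and CTSD on chromosome 11. The nearest tested genes on either side of each that do not overlap it, 20 genes in all, were read out to see what surrounds them. Tested genes that overlap a member, such as PLTP, NELFCD and ENSG00000250644, are not among them. Of these, 5 were called lower, 6 higher and 9 were not called, where 22.0% of all genes tested were called lower and 24.5% higher. CST3 is flanked by NAPB, 205.2 kb away, which had 282, 322 and 396 counts in Control sh against 380, 307 and 417 in VprBP sh, a log2 difference of 0.01, and by ENSG00000274173, 1293.4 kb away, which was called higher at 2.08. CATSPER1, 3.2 kb from CST6, encodes a sperm calcium channel and had 55, 59 and 61 counts in Control sh against 0, 1 and 0 in VprBP sh. BANF1, 7.9 kb away on the other side of CST6, had a log2 difference of -0.57 and was not called. CD86, a co-stimulatory receptor 204.1 kb from CSTA, had 49, 55 and 59 counts and then 0, 1 and 1.

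CSTB, which was higher in VprBP sh, lies between PDXK, the pyridoxal kinase gene, and RRP1, a ribosomal RNA processing gene. PDXK, 10.2 kb away, had a log2 fold change of 1.51 ± 0.09 (SE) with an adjusted p of 4.34e-07, and RRP1, 13.2 kb away, of 1.04 with an adjusted p of 6.12e-06, both in edgeR's quasi-likelihood test. CTSB lies 3.2 kb from FDFT1, the squalene synthase gene, which was not called at -0.75, and 246.2 kb from FAM66D, a long non-coding RNA gene called lower, with 73, 90 and 127 counts in Control sh against 0 in VprBP sh. CTSD lies 2.2 kb from IFITM10, which was called higher at 2.01, and 63.7 kb from SYT8, which was called lower at -2.10. The plot of neighbours shows that the members and the genes beside them often differed in size or sign.

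**Figure D4:**
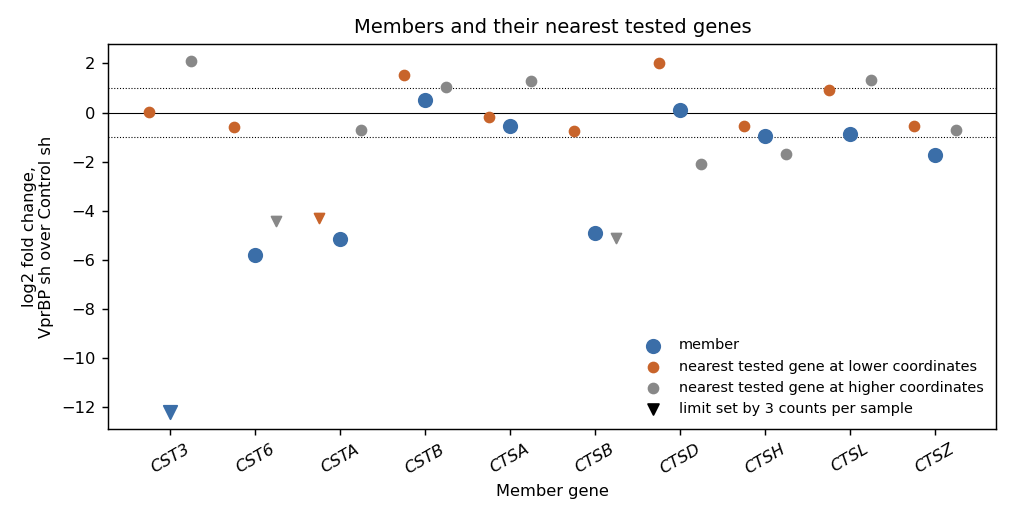
Log2 fold change of VprBP sh over Control sh for each of the 10 genes (blue) and for the nearest tested gene without overlap at lower (orange) and higher (grey) coordinates. Triangles are at the limit set by 3 counts per sample and dotted lines at a 2-fold change. CST3 stands beside NAPB at 0.01, and CSTB at 0.53 stands between RRP1 at 1.04 and PDXK at 1.51.

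The genes most like CST3 over the 6 samples were named by the smallest root mean square difference in log2(normalized counts + 1), which measures level as well as pattern. They were THBD at 0.118, BASP1 at 0.244 and DKK3 at 0.278. THBD, which encodes thrombomodulin, had 13877, 13410 and 14900 counts in Control sh against 0 in each VprBP sh sample, and was at least 5109-fold lower. THBD and CST3 lie 577.0 kb apart on chromosome 20, with 4 tested genes between them. Of those, ENSG00000279164 had 39, 31 and 39 counts in Control sh against 0 in VprBP sh. NXT1, a factor of nuclear export, was lower at a log2 fold change of -1.13, GZF1 had -0.71 and NAPB 0.01. From THBD to CST3, the first and the second gene and the last had no counts in VprBP sh, and the 3 genes between them had counts. BASP1 and DKK3 lie on chromosomes 5 and 11. CST3 was 1 of 957 genes tested with no more than 3 counts per VprBP sh sample, while 497 genes tested had no more than 3 per Control sh sample.

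The other cathepsins moved in both directions. Of 12 further cathepsins and related lysosomal proteases on a list, 9 passed the filter, with 3 called higher, 3 called lower and 3 not called. Of all genes tested, 24.5% were called higher and 22.0% lower. CTSF, a cysteine cathepsin, had 154, 70 and 65 counts in Control sh against 789, 1088 and 1567 in VprBP sh, and rose by a log2 fold change of 3.36 ± 0.33 (SE) with an adjusted p of 9.96e-06 in edgeR's quasi-likelihood test. CTSO, at 2.44, and CTSK, the collagen-degrading cathepsin of osteoclasts, at 1.81, rose as well. CTSS, the cathepsin of antigen-presenting cells, had 494, 448 and 519 counts in Control sh against 16, 33 and 27 in VprBP sh. It fell by 4.41 on the log2 scale, with an adjusted p of 8.3e-08 in the same test, or 21.3-fold. CTSV, the close relative of CTSL, fell by 2.23 and NAPSA, an aspartic protease, by 1.53. CTSC, the activator of granule serine proteases, had -0.41, LGMN, the asparaginyl protease, -0.58 and TPP1 -0.58, and none of these was called.

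Inhibitors of cathepsins outside the cystatin family were also lower where they were called in the main fit. Of 8 such genes on a list, 7 were tested, 4 were called lower and 3 were not called. Among all genes tested, 22.0% were called lower and 24.5% higher. The serpins SERPINB3 and SERPINB4, which inhibit cysteine and serine cathepsins, had 2275 to 4312 and 555 to 1095 counts in Control sh against 0 in every VprBP sh sample. SERPINB3 was at least 1242-fold lower and SERPINB4 at least 294.5-fold, but they are close paralogs, and how reads were divided between them is uncertain. SERPINB13, with 568, 898 and 1085 counts in Control sh, and SPOCK1, with 74, 45 and 35, were also at 0. SERPINB3, SERPINB4 and SERPINB13 all lie on chromosome 18, between 63586989 and 63661893, so they may not be separate cases. SERPINB6 had a log2 difference of -0.95, SERPINB1 of -0.60 and SERPINA3 of 0.92, and these were not called. With scaling by library size alone, and without VprBP sh replicate 1, SERPINA3 was called higher. The 14 other cystatin-family genes on the list have no row in the table analysed and were not analysed here.

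Cathepsins reach the lysosome through receptors for mannose 6-phosphate or through sortilin. Of 10 genes for the sorting of lysosomal enzymes in general, SORT1, which encodes sortilin, was called higher and the other 9 were not called. Among all genes tested, 24.5% were called higher and 22.0% lower. SORT1 had 792, 840 and 854 counts in Control sh against 9090, 8325 and 11465 in VprBP sh, a log2 fold change of 3.39 ± 0.10 (SE) with an adjusted p of 4.82e-09 in edgeR's quasi-likelihood test. The mannose 6-phosphate receptor genes M6PR, at -0.54, and IGF2R, at -0.41, were not called.

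Other lysosomal genes moved in both directions. Of 32 other hydrolases and cofactors, 6 were called higher, 5 lower and 21 were not called, with a median log2 fold change of -0.25. Over all genes tested, 24.5% were called higher and 22.0% lower, and the median was 0.08. PPT1, the palmitoyl-protein thioesterase, rose by 1.36 with an adjusted p of 5.17e-06, and PSAP, the precursor of the saposins, fell by 1.23 with an adjusted p of 3.18e-05, both in edgeR's quasi-likelihood test. GALC, the galactosylceramidase, had 918, 872 and 1052 counts in Control sh against 0 in VprBP sh, so it was at least 343.3-fold lower. The partners of CTSA in its complex, GLB1 at 0.03 and NEU1 at -0.32, were not called. Of 13 lysosomal membrane proteins, CTNS was called higher at 1.03, NPC1 fell by 2.08, and the other 11, LAMP1 and LAMP2 among them, were not called. Of 15 subunits of the vacuolar proton pump, ATP6V0D1 and ATP6AP1 were called higher at 1.20 and 1.04, and 13 were not called. CTNS and ATP6AP1 lay under the limit with TMM factors or DESeq2, as did 4 of the 6 hydrolases called higher. Without Control sh replicate 3, 2 of the 32 hydrolases and cofactors were called higher and 6 lower.

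Of the 4 MiT/TFE transcription factor genes, whose products switch on lysosomal genes, 3 were called lower, where 22.0% of all genes tested were. TFEB had 211, 305 and 319 counts in Control sh against 34, 46 and 74 in VprBP sh and fell by 2.61 on the log2 scale, with an adjusted p of 1.8e-06 in edgeR's quasi-likelihood test. TFEC had 84, 174 and 279 counts and then 0 in each sample, at least 62.85-fold lower. TFE3 fell by 1.00, at the limit for a call, and MITF, at 0.46, was not called. TFE3 lost its call in 5 alternatives, namely scaling by library size alone, the minimum of 10 counts in all samples, the replicate block, and without Control sh replicate 1 or VprBP sh replicate 3. Over the 8 fixed lists, 29 of 90 genes were called, where 7778 of all 16756 genes tested were. Of these 29, 13 were higher and 16 lower. With TMM factors the split was 7 higher and 21 lower, and with scaling by library size alone it was 16 and 14. Without Control sh replicate 3 it was 8 and 18, and without VprBP sh replicate 2 it was 9 and 20. More genes were lower than higher whichever sample was left out. The balance of directions thus depended on the scaling and on single samples.

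**Figure D5:**
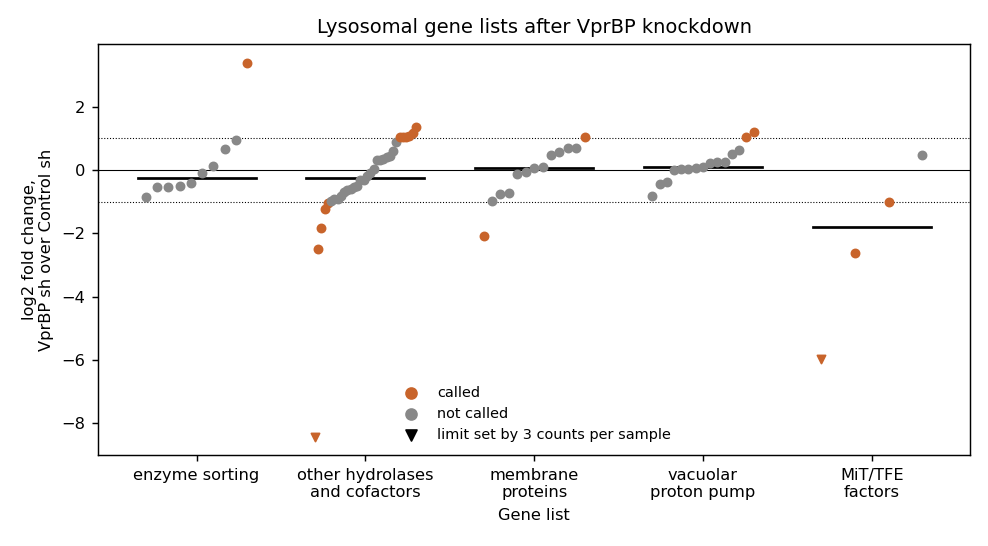
Log2 fold change of VprBP sh over Control sh for the tested genes of 5 lysosomal lists, with a point per gene in orange where called and grey where not, a black line at the list median, dotted lines at a 2-fold change and triangles at the limit set by 3 counts per sample. SORT1, at 3.39 in the sorting list, is the highest point, the hydrolase GALC is the lowest triangle, and the list medians run from -1.80 for MiT/TFE factors to 0.09 for the proton pump.

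Markers of cell types other than the melanocyte lineage also differed between the groups. Of 10 urothelial markers, 7 were tested, with 2 called higher and 4 lower. Over all genes tested, 24.5% were called higher and 22.0% lower. The summed counts of these 7 markers ran from 89651 to 119774 in Control sh against 22477 to 37144 in VprBP sh. KRT5, a basal keratin, had 48190, 63704 and 73688 counts in Control sh against 4524, 2582 and 3560 in VprBP sh. TP63, a factor of basal cells, had 8715, 7670 and 8806 counts and then 9, 8 and 13. UPK1B had 500, 641 and 709 counts and then 0 in each sample, and UPK2 had 176, 203 and 220 and then 26, 44 and 73. KRT7 had 31763, 31453 and 36124 counts and then 15710, 22804 and 30647, and was not called at a log2 difference of -0.70. In the other direction, GATA3, a luminal factor, had 7, 1 and 0 counts and then 1580, 1334 and 1873, and PPARG had 300, 247 and 227 and then 628, 701 and 978. Of 6 leukocyte markers, PTPRC, CD163 and LYZ have no row, and the summed counts of the other 3 were 1281 to 1643 in Control sh against 202 to 617 in VprBP sh. Among these, CD68, a lysosomal membrane protein of macrophages, had 905, 627 and 690 counts and then 1, 5 and 6, and CD14 was called lower as well at a log2 fold change of -1.05, whereas CSF1R, with 28, 28 and 22 counts and then 81, 40 and 67, was called higher at 1.13. Of 5 fibroblast markers, 4 were tested and 3 were called lower, where 22.0% of all genes tested were. The summed counts of these 4 were 693 to 796 in Control sh against 409 to 775 in VprBP sh, most of them from COL1A1. COL1A1 had 603, 659 and 693 counts and then 407, 577 and 768, and was not called at a log2 difference of -0.33. The called COL1A2, LUM and PDGFRB had 13 to 40 counts per Control sh sample. The part of these markers in the cystatin and cathepsin values was not tested.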

How the data were processed

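RNA of 3 Control sh and 3 VprBP sh samples was sequenced, and samples were grouped by their titles. The library kit is SMARTER in the labels but a stranded KAPA kit in the study's methods. Single-end reads were aligned by the authors to hg38 with STAR, and the authors quantified genes in Partek Flow and deposited estimated counts, not normalized and not pooled, of which 59.4% are whole numbers. Every gene of the table analysed sums to at least 10 over the 6 samples. The design assumed counts, so the estimated counts were rounded before testing.

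The 10 genes and all gene lists were chosen with earlier results of these data known. The naming rule covered the 10 genes, DCAF1, markers, the nearest tested genes, the 3 genes most like CST3, and, per list, up to 5 called genes with the largest change and genes without counts in a group. Overlapping genes and other list genes were named after their values were seen.

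Groups were compared with edgeR 4.0.16 in R 4.3.3, using upper quartile factors (quantile 0.75), the quasi-likelihood test, its low-count filter (minimum 10) and Benjamini-Hochberg adjustment over 16756 genes. The study used the Gene Specific Algorithm (GSA) instead. The SE is the log2 fold change over the square root of F. Normalized counts are scaled to the mean effective library size. Where no sample of a group exceeded 3 counts, the fold was taken against 3 counts per sample and is a bound. Gene models and the 50-base windows came from GENCODE 44, and promoters from RefSeq. Totals of 18195926 to 26883925 counts limit the precision at low counts, where intervals cover counting error only. The alternatives were TMM factors, library size alone, DESeq2 1.42.0, no filter, a minimum of 10 counts in all samples, a replicate block and leaving out each sample in turn. The canonical transcript length was added after the data were seen. The test was tried on simulated data. Python 3.11.15 was used for the summaries.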

Additional observations from a re-analysis of the deposited data

How the results depend on the processing

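The 5 called members kept their sign under each of the 12 alternatives that tested them. Among the members, only CTSD, which was not called, changed sign. The median over all genes tested and those of 2 lists, given below, also changed sign. Against 7778 genes called of 16756, the fit with a minimum of 10 counts in all samples called 4690 of 13103, and it called 3 of 8 members, CST3 and CST6 not being tested in it. Without any filter 9575 of 21494 genes were called, and leaving out 1 sample gave 7949 to 8142. TMM factors called 6 members, adding CTSH, and DESeq2 called 7, adding CTSH and CTSL. The median over all genes tested was 0.08, -0.01 with TMM factors, -0.04 with DESeq2 and 0.29 with library size alone. CTSD, at 0.11, had a log2 difference of 0.01 with TMM factors, -0.01 with DESeq2 and 0.33 with library size alone. Several list genes near the 2-fold limit lost their call under TMM factors, namely ACP2, ARSA, CTNS, IDUA, SMPD1 and ATP6AP1, while ARSB, GM2A, LAPTM4B, PLA2G15 and SERPINB6 were then called lower. The medians of the membrane protein and proton pump lists changed sign with TMM factors (-0.05 and -0.01) and with DESeq2 (-0.08 and -0.03). The membrane protein median was also -0.02 without Control sh replicate 1 and without VprBP sh replicate 1.

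The replicate numbers are shared only as numbers. Deviations from the group means correlated between samples of the same number at -0.145, -0.030 and -0.106 over 13320 genes. With a replicate block 7686 genes and 5 members were called. Depth limits CST6 and CSTA in VprBP sh, and for CST3 only a bound can be given.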
